A study of Mus musculus with 4 samples.

Results

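Expression of 9 complement genes was followed in CD45+ leukocytes sorted from mouse ovary: the 3 C1q chains C1qa, C1qb and C1qc, the central components C3 and C4b, the alternative pathway genes Cfb and Cfp, and the anaphylatoxin receptors C3ar1 and C5ar1. The genes were chosen by symbol, and all 9 were found among the 32285 genes of the count table. Their counts of unique molecular identifiers (UMIs, each standing for 1 captured RNA molecule) were read in every cell type and every mouse.

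Female C57BL/6J mice aged 10 to 12 weeks received gonadotropin (5 mice) or saline (5 mice, labelled untreated), and ovaries were collected 48 h later. The hormone preparation, its dose and any coinjected agent are not given in the labels. Viable CD45+ cells of each mouse carried a hashtag antibody, and each group's 5 samples shared 1 droplet library, so that treatment and library cannot be told apart. After removal of barcodes with no hashtag or with more than 1, and of poor cells, 4918 cells remained (2423 from gonadotropin and 2495 from untreated mice, 290 to 828 per mouse), with a median of 7034 and 7664 UMIs per cell. Ptprc, which encodes CD45, had a UMI in 97.2% and 98.1% of cells, but in 38.5% and 35.3% of the cells of 2 tissue macrophage-like clusters. The libraries shared 4 barcode sequences, 2 of which were kept in both.

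Complement is a cascade of plasma proteins that tags particles for uptake and calls in leukocytes. The classical pathway starts when C1q, a hexameric bundle built from A, B and C chains, binds a surface or an antibody, and proceeds through C4 to the cleavage of C3. The alternative pathway amplifies C3 cleavage through factor B (Cfb) and is stabilised by properdin (Cfp). The fragments C3a and C5a act on the receptors encoded by C3ar1 and C5ar1. Liver makes most circulating components, whereas C1q and properdin come mainly from myeloid cells, and ovarian tissue macrophages take up dying cells in follicles and corpora lutea.

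The C1q genes lie side by side on the minus strand of chromosome 4 of GRCm38.p6, C1qb at chr4:136880126-136886200, C1qc at chr4:136889801-136892936 and C1qa at chr4:136895916-136898844, a stretch of 18719 bases. Because the 3 chains were counted in the same cells, the 5' flanks of C1qb and C1qc are shown, with that of C3 (gene at chr17:57203967-57228136), which was highest in another type. The sequences are from RefSeq on GRCm38.p6, minus strand, written 5' to 3'. Capitals mark GAGGAA, on the other strand read as TTCCTC, which is the core of the ETS factor PU.1. They also mark TGCTGA, on the other strand read as TCAGCA, which is the core bound by MAF factors. The C1qb window is chr4:136886201-136886450, the C1qc window chr4:136892937-136893164 (the 22 bases nearest the start lie inside the annotated gene and are not shown) and the C3 window chr17:57228137-57228386.
C1qb: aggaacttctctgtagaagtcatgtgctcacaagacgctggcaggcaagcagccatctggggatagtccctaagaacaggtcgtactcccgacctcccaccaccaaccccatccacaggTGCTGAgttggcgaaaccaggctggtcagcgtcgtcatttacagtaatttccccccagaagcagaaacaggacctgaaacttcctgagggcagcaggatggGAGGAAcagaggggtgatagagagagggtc
C1qc: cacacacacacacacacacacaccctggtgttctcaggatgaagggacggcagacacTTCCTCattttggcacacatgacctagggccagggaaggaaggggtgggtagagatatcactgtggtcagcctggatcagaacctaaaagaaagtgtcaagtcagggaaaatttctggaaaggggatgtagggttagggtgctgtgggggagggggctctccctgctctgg
C3: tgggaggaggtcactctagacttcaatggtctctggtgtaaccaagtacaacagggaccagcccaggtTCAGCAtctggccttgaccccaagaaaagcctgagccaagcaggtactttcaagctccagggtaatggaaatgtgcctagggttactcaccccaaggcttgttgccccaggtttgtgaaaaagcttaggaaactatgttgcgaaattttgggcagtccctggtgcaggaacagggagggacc

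Both motifs stand in the C1qb window, GAGGAA 30 bases and TGCTGA 131 bases before the start. The C1qc window holds the PU.1 core 193 bases before the start, and the C3 window a MAF core 182 bases before it. The C3ar1 window holds TGCTGA at 144 bases, and the Cfp window holds neither motif. The C5ar1 window holds TGCTGA at 17 bases, but 202 of its bases, the match among them, lie inside the annotated gene. Of 32851 windows of 250 bases over all genes, 23.3% hold GAGGAA and 16.1% hold TGCTGA on either strand, so that these matches describe the letters and nothing more. Windows were found for 6 of the 9 genes.

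The cells were grouped by clustering without the 9 genes, and clusters were named from marker lists, as "-like" types. Tissue macrophage-like cells numbered 96 (67 gonadotropin, 29 untreated), peritoneal-type macrophage-like cells 16, classical monocyte-like cells 83, non-classical monocyte-like cells 121, neutrophil-like cells 111, follicular-type B cell-like cells 1239 and B-1-type B cell-like cells 718. A pair of phagocyte clusters could not be named by the marker rule: 43 cells led by Aif1, F13a1 and C1qb with Ccr2 and Slamf8 (33 gonadotropin, 10 untreated), and 18 cells led by Ltc4s, Fn1 and Cgnl1 with Arg1 and Hal (16 gonadotropin, 2 untreated). A further 41 cells, in a pair of mixed clusters with B or T cell genes, also stayed unnamed. The cell division genes Top2a, Birc5 and Hist1h1b were among the leading genes of both, and no listed marker was. Larger unnamed clusters were 457 B cells with Atrnl1 and Cpm (168 gonadotropin, 289 untreated) and 167 T cells with Trdc and Ccl5 (100 gonadotropin, 67 untreated). The 457 B cells belong to neither of the named B cell types. Levels by type are pooled UMIs per 1000000 UMIs of those cells (CPM), a description with no test. UMIs at transcript 3' ends count molecules, and no value was divided by gene length.

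**Figure D1:**
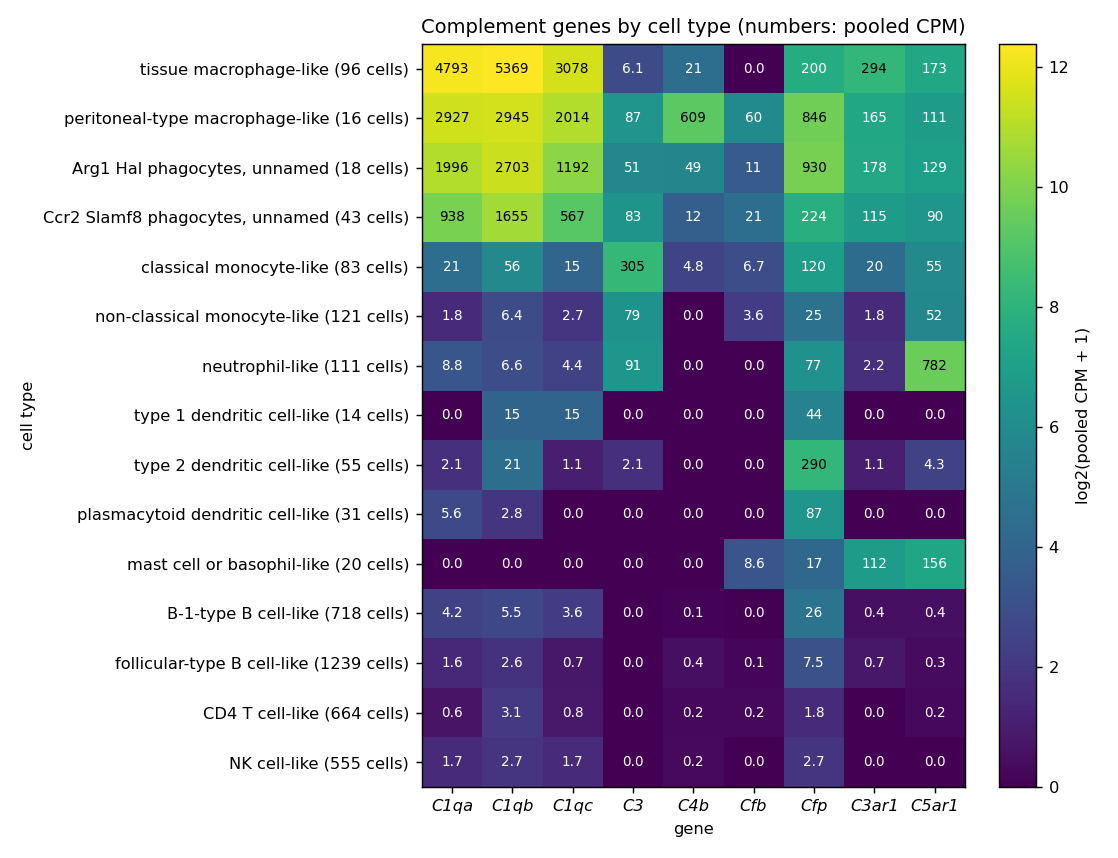
Pooled level of each complement gene (columns) in 15 cell types (rows, with cell numbers). Colour is log2(CPM + 1) and the printed number is the CPM; the C1q genes are highest in macrophage-like cells and the unnamed phagocytes, C3 in classical monocyte-like cells (305), C4b in peritoneal-type macrophage-like cells (609) and C5ar1 in neutrophil-like cells (782).

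The C1q chains were the most abundant of the 9 genes and lay mainly in macrophage-like cells (49.9% of C1qb UMIs) and the unnamed phagocytes (39.9%). C1qa reached 4793 CPM in tissue macrophage-like cells, 2927 in peritoneal-type macrophage-like cells, 1996 in the Arg1 Hal phagocytes and 938 in the Ccr2 Slamf8 phagocytes, against 20.9 in classical monocyte-like and 1.56 in follicular-type B cell-like cells. The order was the same for C1qb (5369, 2945, 2703 and 1655 CPM) and C1qc (3078, 2014, 1192 and 567 CPM). Over the 7 mice with at least 5 tissue macrophage-like cells, C1qa ran from 2716 to 9439 CPM, a range that includes the 3177 CPM of the single mouse with enough peritoneal-type cells. In 3 mice the Arg1 Hal phagocytes held 1720 to 1810 CPM of C1qa, below all 7 of those tissue macrophage values.

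A C1qa UMI was found in 95.8% of tissue macrophage-like cells (95% Clopper-Pearson interval 89.7 to 98.9%) although their median depth was only 2147 UMIs. In follicular-type B cell-like cells, which should lack C1q, the share was 0.888% at a median of 5419 UMIs. This share is taken as background, and its source was not tested. After thinning every cell to 1000 UMIs the shares were 92.6% (94 cells) and 0.0808% (1237 cells). B-1-type B cell-like cells, with a median depth of 13194.5 UMIs, had a C1qa UMI in 2.51% of cells. Their 127 C1q UMIs lay in 34 cells, 5 of which had all 3 chains, whereas the 34 C1q UMIs of follicular-type cells lay in 34 cells, none with all 3. Same-hashtag doublets remain among these cells, and their part was not tested. Neutrophil-like cells (median 3974 UMIs) had a C1qa UMI in 3.60% of cells (0.990 to 8.97%, 4 cells) and non-classical monocyte-like cells in 1.65% (0.201 to 5.84%, 2 cells).

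The 3 chains were found together. All 3 had a UMI in 91 of 96 tissue macrophage-like cells, 16 of 16 peritoneal-type cells, 14 of 18 Arg1 Hal phagocytes and 20 of 43 Ccr2 Slamf8 phagocytes, against 11 of 4704 cells outside the macrophage, unnamed phagocyte and mixed clusters. C1qa, C1qb and C1qc made up 36.2%, 40.5% and 23.2% of the C1q UMIs of tissue macrophage-like cells. The make-up was 37.1%, 37.3% and 25.5% in peritoneal-type cells. C1qb weighed more in the Ccr2 Slamf8 phagocytes (29.7%, 52.4% and 17.9% of 1789 UMIs). Type 2 dendritic cell-like cells had 23 C1q UMIs, of which 87.0% were C1qb, in 8 of 55 cells.

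Tissue macrophage-like cells comprised 3 clusters that differed in C1q level. A cluster of 34 cells led by Vcam1, Slc40a1 and Stab1 held 8173 CPM of C1qa, a cluster of 52 cells led by Cyp11a1, Fabp5 and Trem2 held 3854 CPM, and 10 cells led by Cadm1 held 4030 CPM. Properdin followed the first of these, with 573 CPM of Cfp against 100.4 and 112. C3ar1 did not, at 151 CPM against 170 and 484. Cyp11a1, the side-chain cleavage enzyme of steroid-producing cells, had 95 UMIs in 19.2% of the cells of the second cluster, and Lhcgr, the luteinising hormone receptor, had 15. Star, another gene of steroid production, had 3. The source of these UMIs and their part in the C1q levels were not tested. Ptprc had a UMI in 38.5% of the cells of the cluster led by Cyp11a1 and 35.3% of the cluster led by Vcam1, at median depths of 2189 and 1768.5 UMIs, and in 100% of the other 10 cells.

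C3, the component on which all pathways converge, was highest in classical monocyte-like cells. They held 305 CPM, with a UMI in 89.2% of cells (80.4 to 94.9%). The next types were neutrophil-like cells (90.5 CPM), peritoneal-type macrophage-like cells (87.0), Ccr2 Slamf8 phagocytes (83.0), non-classical monocyte-like cells (79.0) and Arg1 Hal phagocytes (51.4). Over the 5 mice with at least 5 classical monocyte-like cells, 4 of them gonadotropin mice, C3 ran from 264 to 374 CPM, above the highest mouse of the non-classical type (128 CPM, 8 mice) and of the neutrophil-like type (215 CPM, 9 mice). Tissue macrophage-like cells had 2 C3 UMIs in all, both from 1 cell. No follicular-type B cell-like cell had a C3 UMI, 0 of 1239, which allows a share of up to 0.242%.

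The pooled C3 level also differed between clusters within types. Of the non-classical monocyte-like cells, the 41 led by Ace and Adgre4 held 132 CPM and the 80 led by Cd300e and Pparg 42.7 CPM. Of the neutrophil-like cells, the 38 led by Il1r2 and Slc7a11 held 138 CPM and the 73 led by Retnlg and S100a9 66.4 CPM. All 111 neutrophil-like cells had 41 C3 UMIs, and C3 by mouse ran from 0 to 215 CPM in them. The cluster levels pool the mice and are descriptions of clusters drawn from the same cells.

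C4b, the C4 gene of the classical and lectin pathways, was concentrated in 16 cells. Peritoneal-type macrophage-like cells held 609 CPM and 203 of the 253 UMIs, with a UMI in 81.2% of them, against 49.3 CPM in the Arg1 Hal phagocytes and 21.2 in tissue macrophage-like cells. By mouse these cells gave 109 UMIs in untreated 5 (6 cells), 31 in untreated 3, 21 in gonadotropin 3, 18 in gonadotropin 4, 14 in untreated 4, 7 in untreated 2, 3 in gonadotropin 5 and 0 in gonadotropin 2 (2 cells). C4b has a near-identical neighbour, C4a, which had 8 UMIs, and reads shared by both cannot be assigned with certainty. No neutrophil-like cell had a C4b UMI, 0 of 111, which allows a share of up to 2.70%.

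Cfb, the protease of the alternative pathway convertase, was the scarcest of the 9, with 53 UMIs. Of these, 20 came from peritoneal-type macrophage-like cells (60.0 CPM), 12 from Ccr2 Slamf8 phagocytes (21.2 CPM) and 7 from classical monocyte-like cells (6.66 CPM). Cfp, which encodes the convertase stabiliser properdin, was spread over many types. It reached 930 CPM in the Arg1 Hal phagocytes and 846 in peritoneal-type cells, then 290 in type 2 dendritic cell-like cells, 224 in Ccr2 Slamf8 phagocytes, 200.0 in tissue macrophage-like cells, 119.8 in classical monocyte-like cells, 86.7 in plasmacytoid dendritic cell-like cells and 77.3 in neutrophil-like cells.

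B cells differed from each other in Cfp. B-1-type cells held 25.7 CPM, with a UMI in 20.6% of cells (17.7 to 23.8%), and follicular-type cells 7.54 CPM, with a UMI in 2.99% (2.11 to 4.09%). At 1000 UMIs per cell the shares were 1.53% and 0.485%, at 2000 UMIs 4.33% and 1.23%. CD4 T cell-like cells had a UMI in 1.20% at a median depth of 7366 UMIs. The unthinned shares are not comparable, because the median depths were 13194.5 and 5419 UMIs. By mouse, B-1-type cells ran from 12.4 to 41.2 CPM of Cfp and follicular-type cells from 0 to 14.7 CPM, so that the ranges touched.

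The receptors were highest in different types, and several phagocyte types held both. C3ar1 was highest in tissue macrophage-like cells (294 CPM), then the Arg1 Hal phagocytes (178), peritoneal-type cells (165), the Ccr2 Slamf8 phagocytes (115) and mast cell or basophil-like cells (112, on 13 UMIs). Its mouse range in tissue macrophage-like cells, 44.9 to 542 CPM over 7 mice, covered the pooled values of all those types. Among the tissue macrophage-like clusters, only the 10 cells led by Cadm1 lay above the Arg1 Hal phagocytes in pooled C3ar1. C5ar1 was highest in neutrophil-like cells, at 782 CPM and 354 of 728 UMIs, followed by tissue macrophage-like cells (173), mast cell or basophil-like cells (156), Arg1 Hal phagocytes (129) and peritoneal-type cells (111). Over 9 mice neutrophil-like cells ran from 585 to 1079 CPM of C5ar1, above the highest mouse of the tissue macrophage-like cells (345 CPM).

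At matched depth of 1000 UMIs, 53.2% of neutrophil-like cells had a C5ar1 UMI, 12.8% of tissue macrophage-like cells and 0.0808% of follicular-type B cell-like cells. Without thinning, 100 of 111 neutrophil-like cells had a UMI of either receptor gene and 1 had both. Both were found in 17 of 96 tissue macrophage-like, 15 of 43 Ccr2 Slamf8, 15 of 18 Arg1 Hal and 10 of 16 peritoneal-type cells. These counts were not matched for depth, and the types had medians of 2147, 13450, 25537.5 and 19485.5 UMIs per cell in that order. Peritoneal-type cells also had the broadest complement repertoire, a median of 8 of the 9 genes per cell (6 to 9). The median was 7 in the Arg1 Hal phagocytes, 4 in tissue macrophage-like cells and Ccr2 Slamf8 phagocytes, 2 in classical monocyte-like cells and 1 in neutrophil-like cells. These numbers of genes were not matched for depth either.

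**Figure D2:**
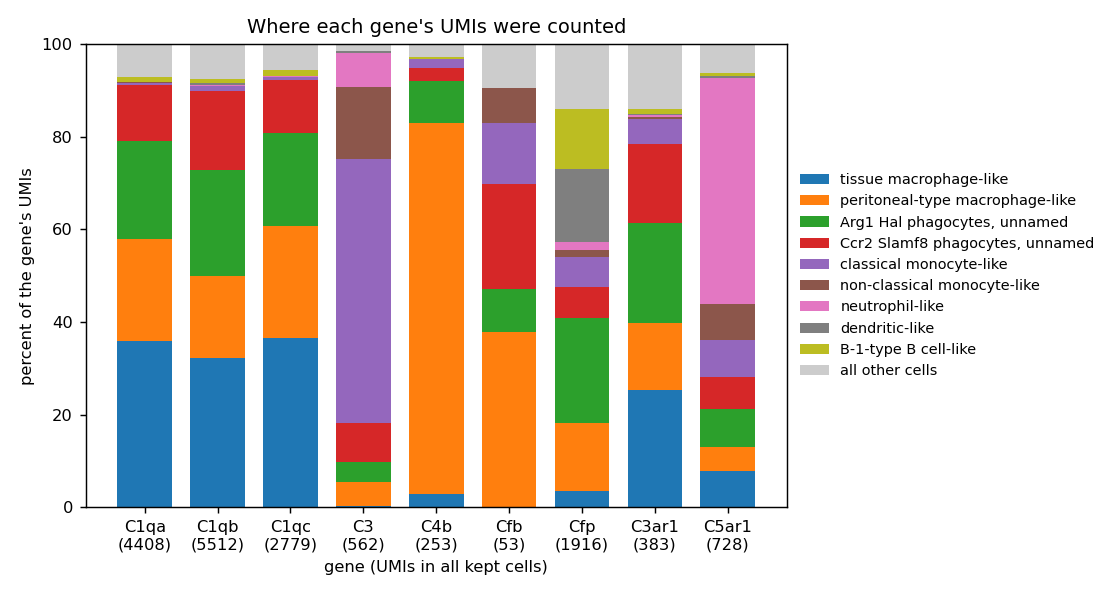
Percent of each gene's UMIs (bars, gene totals in brackets) by the type of cell they were counted in, over all kept cells. Monocyte-like cells held 72.6% of C3, peritoneal-type macrophage-like cells 80.2% of C4b, neutrophil-like cells 48.6% of C5ar1, and B-1-type B cell-like cells 12.8% of Cfp.

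Profiles across the 17 named types, on the log2(CPM + 1) scale, were compared with those of 11344 genes with at least 50 UMIs. The 9 members were left out of this ranking, and C1qa had r of 0.92 with both C1qb and C1qc. Of the other genes, C1qa was most like Mertk (Pearson r = 0.94), the receptor kinase for apoptotic cell uptake, followed by Pf4, Abcc3, Ptprm and Folr2. Mertk, Pf4 and Folr2 were on the marker list that named the tissue macrophage-like cells, so that their likeness is not independent of the naming. C3 was most like Hp (0.95), which encodes haptoglobin, followed by Cdc42ep2, Mtus1, Klra2 and Apoc2. Cfp was most like Asah1 (0.91), acid ceramidase, followed by the lysosomal genes Ctsz, Hexa and Grn and by Pirb. C5ar1 was most like C5ar2 (0.98), the second C5a receptor, followed by Pla2g7, Hk3, Trpm2 and Kcnj2. The types share both libraries and differ in depth, and these values describe likeness only.

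Whether gonadotropin changed complement RNA was first asked over all CD45+ cells of each mouse, 5 against 5. C3 and C5ar1 were higher after gonadotropin and passed the test. The C1q chains and C3ar1 had positive differences that did not pass, and C4b and Cfp varied more between mice than between groups. In such totals, more cells of a type and more RNA per cell cannot be told apart.

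C3 was 16.2, 14.2, 28.8, 19.3 and 17.1 CPM in the gonadotropin mice and 5.12, 4.80, 5.61, 10.9 and 14.5 CPM in the untreated mice. All but the lowest gonadotropin mouse lay above the highest untreated mouse. The means were 19.1 ± 5.70 and 8.19 ± 4.32 CPM (SD, n = 5 each), a log2 difference of 1.12 ± 0.30 (SE, edgeR adjusted p = 0.0346).

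C5ar1 was 19.6, 32.8, 35.3, 22.0 and 11.9 CPM in the gonadotropin mice and 8.14, 10.7, 9.04, 14.1 and 15.2 CPM in the untreated mice. Gonadotropin 5 lay within the untreated range and the other 4 above it. The means were 24.3 ± 9.68 and 11.4 ± 3.10 CPM, a log2 difference of 1.01 ± 0.27 (SE, edgeR adjusted p = 0.0327).

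These 2 were the members called among 8 tested, both higher, while 9.12% of the 11266 genes tested were called, 4.97% higher and 4.15% lower. Of those calls 560 were higher and 467 lower, a split of 885 and 316 with plain library totals in place of TMM factors. Of the 8, 7 had a positive difference and 5 an unadjusted p under 0.05 (2769 of all 11266 genes had one), and the median log2 difference was 0.83 (-0.0029 over all genes). With each mouse left out in turn, between 0 and 4 of the 8 passed, and C3 and C5ar1 each passed in 4 of 10 such fits. C3 no longer passed without gonadotropin 3, 4 or 5 or untreated 1, 2 or 3, and C5ar1 without gonadotropin 2, 3 or 4 or untreated 1, 2 or 3, with edgeR adjusted p of at most 0.0776 and 0.0737.

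The cell mix moved with both genes. Monocyte-like cells made up 3.70 to 6.21% of a gonadotropin mouse's cells (median 5.15%) and 1.39 to 5.10% of an untreated mouse's (median 3.69%). Neutrophil-like cells made up 1.65 to 3.97% (median 3.10%) and 0.629 to 2.31% (median 1.69%). B-1-type B cell-like cells, which had 0 C3 UMIs, moved the other way, at 3.55 to 12.2% (median 10.7%) and 16.2 to 24.2% (median 20.8%). The part of these shares in the C3 and C5ar1 differences was not tested over all cells. Without macrophage-like, unnamed phagocyte and mixed clusters the differences were as large, 1.14 ± 0.29 for C3 (edgeR adjusted p = 0.0224) and 1.06 ± 0.29 for C5ar1 (edgeR adjusted p = 0.0292). Those fits kept the monocyte-like, neutrophil-like and B-1-type cells, so they do not bear on the shares given above.

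**Figure D3:**
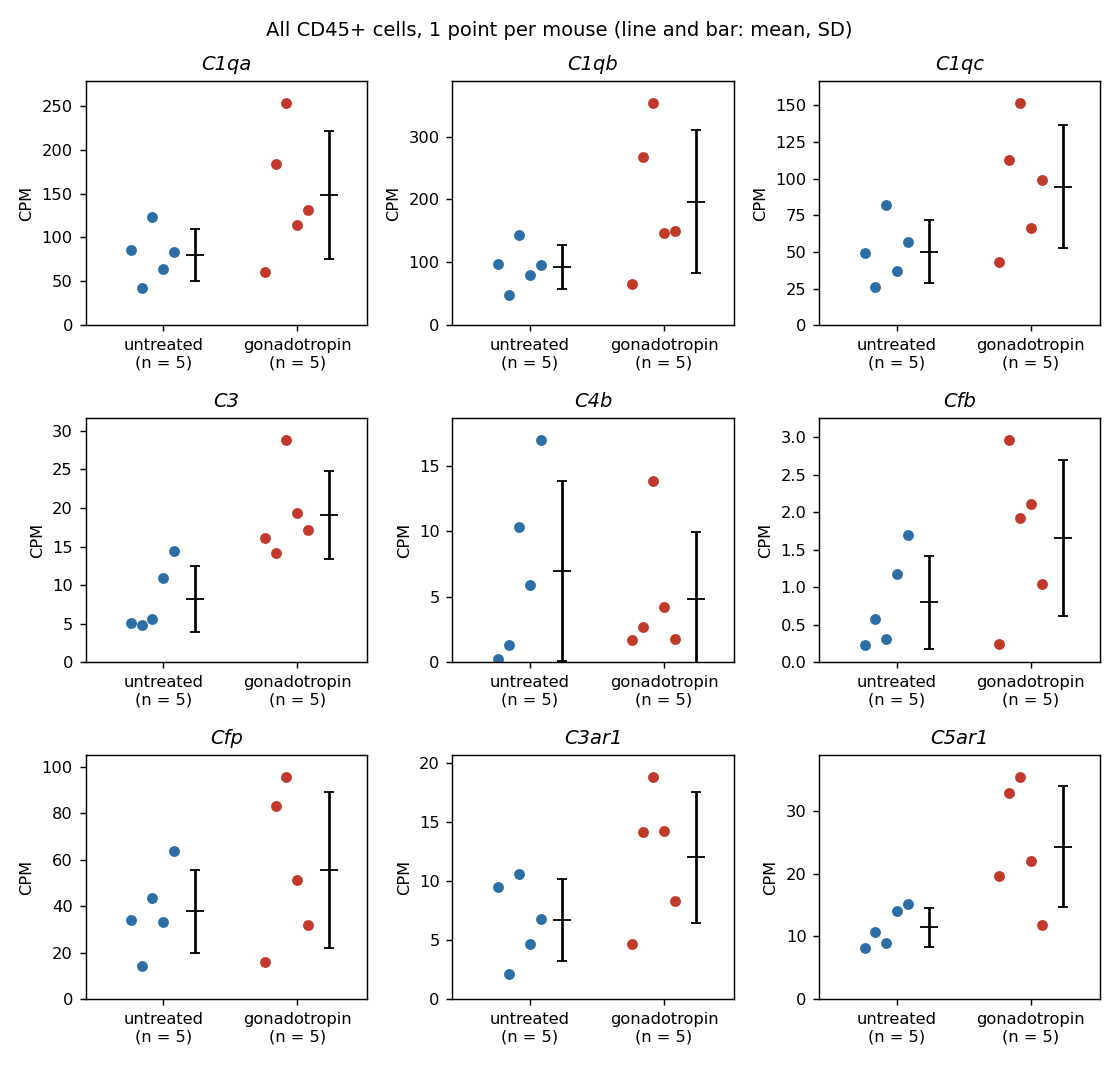
CPM of the 9 genes over all CD45+ cells of each mouse (points; 5 untreated, 5 gonadotropin), with the group mean and SD beside them (lower bars that would pass below 0 end at the axis). The groups overlapped for every gene, and for C3 1 gonadotropin mouse (14.2) lay below the highest untreated mouse (14.5).

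C1qb was 65.4, 268, 353, 146 and 150 CPM in the gonadotropin mice and 97.7, 47.6, 143, 80.1 and 95.1 CPM in the untreated mice. Gonadotropin 1 was below 4 of the 5 untreated mice and the other gonadotropin mice above all of them. The log2 difference was 1.02 ± 0.39 (edgeR adjusted p = 0.119), with 0.83 ± 0.34 for C1qa (edgeR adjusted p = 0.147) and 0.84 ± 0.34 for C1qc (edgeR adjusted p = 0.141). Without gonadotropin 1, C1qa and C1qb passed the test (1.04, edgeR adjusted p = 0.0404, and 1.25, edgeR adjusted p = 0.0290).

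The cells that supplied these transcripts differed between the libraries. Unnamed phagocytes gave 53.8% of the C1qb UMIs in the gonadotropin library and 14.4% in the untreated one, and macrophage-like cells 39.6% and 68.8%. These shares pool the mice of a library and weigh deep cells more. The Ccr2 Slamf8 and Arg1 Hal phagocytes had medians of 13450 and 25537.5 UMIs per cell, and macrophage-like cells 2358. Neither phagocyte cluster was found in every mouse of either group. Macrophage-like cells made up 1.45 to 5.82% of a gonadotropin mouse's cells (median 2.84%) and 0.792 to 3.04% of an untreated mouse's (median 1.24%). Without macrophage-like, unnamed phagocyte and mixed clusters the C1qb difference was -0.24 ± 0.50. Background C1qa in follicular-type B cell-like cells was 3.30 ± 1.53 CPM after gonadotropin and 0.206 ± 0.461 CPM in untreated mice, on 10 UMIs and 1 UMI, and its part in the differences was not tested.

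C3ar1 was 4.65, 14.2, 18.8, 14.2 and 8.37 CPM in the gonadotropin mice and 9.54, 2.11, 10.6, 4.69 and 6.77 CPM in the untreated mice. The groups overlapped, and the log2 difference was 0.79 ± 0.41 (edgeR adjusted p = 0.259). Cfp was 16.2, 83.3, 95.5, 51.6 and 32.1 CPM after gonadotropin against 34.0, 14.6, 43.6, 33.2 and 63.7 CPM, a difference of 0.46 ± 0.43 (edgeR adjusted p = 0.564). C4b was 1.71, 2.66, 13.8, 4.23 and 1.74 CPM against 0.233, 1.34, 10.3, 5.86 and 16.9 CPM, a difference of -0.71 ± 0.77 (edgeR adjusted p = 0.631). The highest C4b values belonged to mice with 2 or more peritoneal-type cells, untreated 5 with 6, gonadotropin 3 with 2 and untreated 3 with 2, although gonadotropin 2 also had 2 and 2.66 CPM. Cfb, at 0.245 to 2.95 CPM after gonadotropin and 0.233 to 1.69 CPM in untreated mice, was too low to be tested.

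Within macrophage-like cells, tissue and peritoneal-type summed together, the C1q chains did not pass the test. The 2 types had medians of 2147 and 19485.5 UMIs per cell and pooled C1qa of 4793 and 2927 CPM. Peritoneal-type cells numbered 6 of 73 macrophage-like cells in gonadotropin mice and 10 of 39 in untreated mice. The C1q differences given here are therefore those of the mixed class and not of either type alone. C1qa was 4210, 2750, 2993, 3793 and 5110 CPM in the gonadotropin mice and 5773, 4731, 3666 and 3307 CPM in untreated 2 to 5, the other untreated mouse having 4 such cells and staying out. The groups overlapped throughout. The log2 difference was -0.19 ± 0.24 for C1qa (edgeR adjusted p = 0.867), -0.17 ± 0.24 for C1qb (0.888) and -0.08 ± 0.25 for C1qc (0.953). None of 7 members tested was called, and of 1155 genes 0% was called by edgeR (89 at an unadjusted p under 0.05, and 2 by DESeq2).

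C4b in macrophage-like cells was 69.6, 9.45, 302, 255 and 53.6 CPM after gonadotropin and 206, 403, 349 and 869 CPM in the untreated mice, with overlapping groups. The difference was -1.77 ± 0.71 (edgeR adjusted p = 0.620) and passed, of the alternatives run, only when genes of low count were kept in (-1.96, edgeR adjusted p = 0.00683). Peritoneal-type cells, the holders of C4b, numbered 6 of the 73 macrophage-like cells of gonadotropin mice and 10 of the 39 of untreated mice, and their part in the difference was not tested. Cfp, at 353 ± 83.5 against 614 ± 421 CPM, had a difference of -0.84 ± 0.41 (edgeR adjusted p = 0.663), and 0.31 ± 0.61 in tissue macrophage-like cells alone. C3ar1 was 191 ± 52.0 against 215 ± 92.4 CPM and C5ar1 110 ± 68.6 against 173 ± 78.8 CPM, and neither passed.

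In monocyte-like cells C3 was 197, 201, 223, 261 and 197 CPM in the gonadotropin mice and 80.9, 142 and 187 CPM in untreated 2, 4 and 5, the mice with at least 10 such cells. The groups did not overlap for C3, and the share of all genes without overlap was not counted. These sums join classical and non-classical monocyte-like cells, with 305 and 79.0 CPM of C3. Classical cells made up 1.06 to 3.02% of a gonadotropin mouse's cells and 0.462 to 3.17% of an untreated mouse's. Non-classical cells made up 2.17 to 3.55% and 0.792 to 3.38%. The part of this mix was not tested. The log2 difference for C3 was 0.63 ± 0.24 (edgeR adjusted p = 0.362), so that it did not pass over 4397 genes. None of the 3 members tested was called, against 0.25% of all genes, 0.0227% higher and 0.227% lower (1 and 10 genes, and 3 and 12 by DESeq2). The 2 untreated mice with fewer than 10 monocyte-like cells had 136 and 123 CPM.

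C3 was also read in the monocyte types apart, as values. Classical monocyte-like cells gave 327, 390, 363, 374 and 264 CPM in the gonadotropin mice (4 to 15 cells each) and 240, 225, 177, 277 and 273 CPM in the untreated mice (3 to 23 cells each), with overlap. Non-classical monocyte-like cells gave 113, 76.8, 86.1, 128 and 94.3 CPM against 0, 49.4, 51.3, 80.3 and 15.1 CPM, again with overlap. Cfp (-0.68 ± 0.40, edgeR adjusted p = 0.606) and C5ar1 (-1.01 ± 0.50, edgeR adjusted p = 0.525) had negative differences in monocyte-like cells. Both turned positive where cells were typed one by one from markers (0.21 and 0.05). C3ar1, untested, had 4 UMIs after gonadotropin and 17 in the untreated mice, 3.25 ± 3.34 against 22.8 ± 12.1 CPM. In mice with at least 10 monocyte-like cells, the gonadotropin mice were lower in C3ar1 without overlap (0 to 7.73 against 8.99 to 31.5 CPM). Over all 5 untreated mice C3ar1 ran from 0 to 31.5 CPM, so that the groups then overlapped. Of the 23 C3ar1 UMIs of all monocyte-like cells, 21 lay in classical ones, and the part of the mix was not tested. The share of all genes without overlap was not counted here either.

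C5ar1 in neutrophil-like cells was 838, 1079, 800.1, 869 and 585 CPM in the gonadotropin mice and 591, 612, 639 and 643 CPM in the untreated mice. Gonadotropin 5, with 6 such cells, lay below all of the untreated mice and the other 4 above them. The difference was 0.43 ± 0.24 (edgeR adjusted p = 0.678). It was the only member with enough counts to test, and 0% of 799 genes were called by edgeR (65 at an unadjusted p under 0.05, and 2 by DESeq2). C3 in these cells was 64.7 ± 63.7 CPM after gonadotropin and 156 ± 78.3 CPM in untreated mice, on 21 and 19 UMIs.

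**Figure D4:**
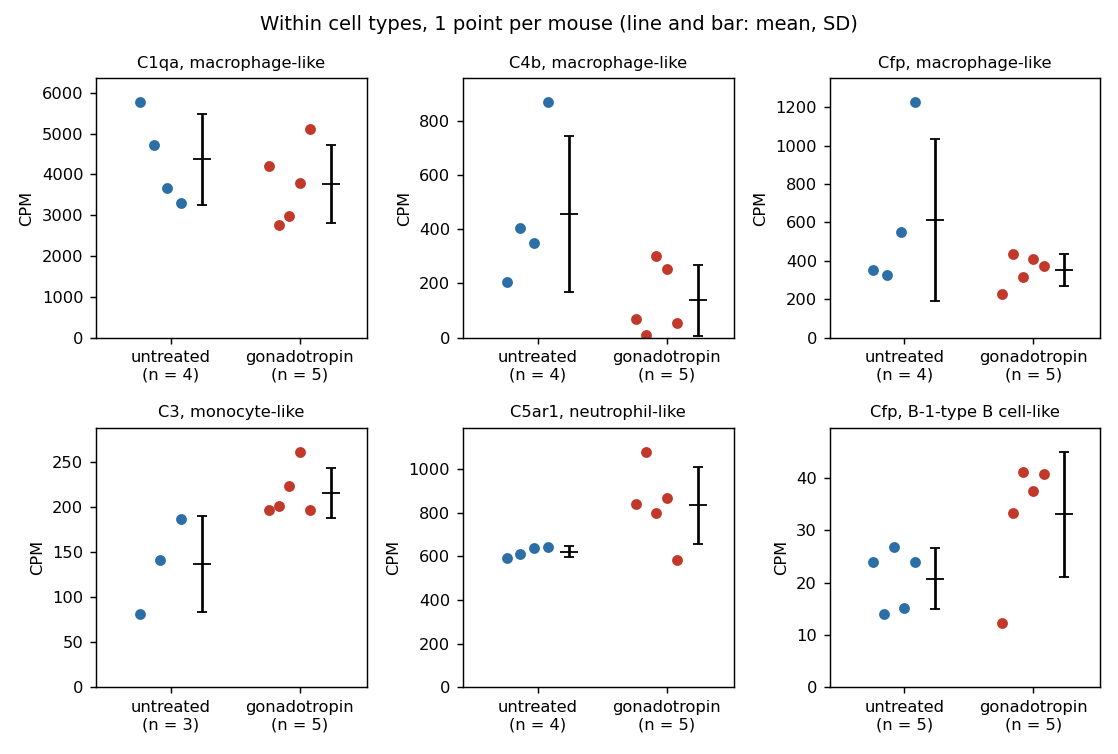
CPM per mouse (points) within a cell type, with group mean and SD beside them (lower bars that would pass below 0 end at the axis), for mice with at least 5 macrophage-like or neutrophil-like cells and at least 10 monocyte-like or B-1-type cells. The groups did not overlap for C3 in monocyte-like cells (197 to 261 against 80.9 to 187 CPM) and overlapped in the other panels. With classical and non-classical monocyte-like cells read apart, the C3 groups overlapped. The share of all genes without overlap was not counted.

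Cfp was the only member with enough counts in dendritic and B cells. In dendritic-like cells, 3 mice against 3, it was 209 ± 110 after gonadotropin and 212 ± 102 CPM in untreated mice, a difference of -0.07 ± 0.47 (edgeR adjusted p = 1), where 0% of 3251 genes were called (104 at an unadjusted p under 0.05, and 0 by DESeq2). In B-1-type B cell-like cells it was 12.4, 33.3, 41.2, 37.6 and 40.7 CPM after gonadotropin and 24.0, 13.9, 26.9, 15.2 and 24.0 CPM in untreated mice. Gonadotropin 1, on 3 UMIs from 20 cells, was the lowest of all 10, and the other 4 were above every untreated mouse. The difference was 0.73 ± 0.24 (edgeR adjusted p = 0.245) and did not pass over 7741 genes, of which 0.349% were called, 0.155% higher and 0.194% lower (12 and 15 genes, 12 and 10 with plain library totals, and 32 and 25 by DESeq2). Follicular-type B cell-like cells had 0.958% of 6576 genes called, 0.471% higher and 0.487% lower, and too few counts of all 9 members for a test.

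The rest of the pathway was read from a list of 43 further complement genes. Of these, 33 had a UMI, and 10 had none, C1rb, C1s2, C6, C7, C8b, Mbl1, Mbl2, Cfd, Serping1 and C4bp. The 6 highest over all cells were Cd55 (302 CPM), which speeds the decay of convertases, Itgb2 (136) and Itgam (125), the chains of complement receptor 3, Cr1l (101), C1qbp (65.9) and Cr2 (55.6), the receptor for C3d. Vsig4, the macrophage receptor for C3b, had 60 of its 67 UMIs in peritoneal-type macrophage-like cells. C5ar2 had 29 of 67 UMIs in neutrophil-like cells.

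Over all CD45+ cells 13 of the 43 could be tested, and 3 were called higher and 1 lower, beside 9.12% of all genes. Itgam was 179 ± 72.0 CPM after gonadotropin and 82.7 ± 17.0 CPM in untreated mice (log2 difference 1.05 ± 0.25, edgeR adjusted p = 0.0192). Itgb2 was 166 ± 24.5 and 109 ± 16.8 CPM (0.56 ± 0.11, edgeR adjusted p = 0.0112), and Lrp1, a scavenger receptor, 48.5 ± 11.1 and 25.4 ± 8.08 CPM (0.85 ± 0.21, edgeR adjusted p = 0.0236). C1qbp, a mitochondrial protein that also binds C1q, was lower, at 60.5 ± 3.57 against 70.5 ± 7.64 CPM (-0.29 ± 0.08, edgeR adjusted p = 0.0407). Within the cell types 2 to 7 of the 43 could be tested, and 0 were called by edgeR or by DESeq2 (1 at an unadjusted p under 0.05 in macrophage-like, 2 in monocyte-like, 1 in dendritic-like and 0 in the other types).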

How the data were processed

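Per the labels' protocols, CD45+ ovarian cells were stained with hashtag antibodies and run as 1 droplet library per group, and per the submitters' processing notes bcl2fastq, Cell Ranger and Seurat were used with mm10. The deposited values are raw UMI counts per gene and cell, and the deposited hashtag calls gave each cell its mouse. Of 6468 barcodes, 1348 hashtag doublets and 89 negatives were left out, no doublet caller was run, and the remaining barcodes had to hold 500 genes or more with less than 10% of UMIs from mitochondrial genes. Doublets of cells with the same hashtag remain.

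Cells were clustered with scanpy 1.11.5 on 2000 variable genes without the 9 members (30 components, 15 neighbours, Leiden resolution 1), and myeloid cells again (1000 genes, 20 components, resolution 1.5). Counts were summed per mouse and tested with edgeR 4.0.16 (quasi-likelihood, TMM, filterByExpr, Benjamini-Hochberg over all genes tested, threshold 0.05), with DESeq2 1.42.0 as an alternative. SE is the log2 difference over the square root of F. A minimum of 10 cells per mouse and 3 mice per group was set. Macrophage-like and neutrophil-like cells had too few untreated mice for it, so a minimum of 5 cells is used there. The scripts were tested on simulated data. The named genes were the 9 members, other complement genes past the threshold or among the 6 with the highest CPM, and the 5 genes most like C1qa, C3, Cfp and C5ar1. Genes outside this rule (Vsig4, C5ar2, C4a, Cyp11a1, Lhcgr, Star, Ptprc and cluster leaders) were chosen after their values were seen. Intervals and limits cover counting error only, and UMIs per mouse ran from 2559097 to 7097779. The members and lists were chosen with earlier results of these data known.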

Additional observations from a re-analysis of the deposited data

Results flagged for a closer look

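Of 37 groups of 4 or 5 mice examined, 3 had a mouse far from the others, and chance gives about 1 in 20. C4b over all CD45+ cells was 13.8 CPM in gonadotropin 3, where the group's median was 2.66 CPM (n = 5). C3ar1 in macrophage-like cells was 352 CPM in untreated 3, with a median of 180 CPM (n = 4). Cfp in B-1-type B cell-like cells was 12.4 CPM in gonadotropin 1, with a median of 37.6 CPM (n = 5).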

How the results depend on the processing

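No paired analysis was possible because the labels give no pairing of mice across the 2 libraries and each library is 1 pool of 1 group. Over all CD45+ cells, leaving out 1 mouse gave 0 to 4 members called against 2, and the other alternatives run gave 2. Keeping low counts gave 1 member called in macrophage-like cells (C4b) against 0. Thinning to 2000 in place of 1000 UMIs moved the share of cells with a UMI from 22.9 to 45.8% for C3, 31.2 to 68.8% for C4b, 19.1 to 32.7% for C3ar1 and 53.2 to 70.3% for C5ar1, in the type highest for each. Differences that changed sign, none of which had passed: over all cells, C4b (-1.41 without gonadotropin 3 to 0.11 without untreated 5) and C1qb without macrophage-like, unnamed phagocyte and mixed clusters (-0.24, chosen after seeing the data); in macrophage-like cells, with 1 mouse left out C1qc (-0.23 to 0.079, above 0 without gonadotropin 2 at 0.044 and untreated 2), C1qb (-0.34 to 0.0049, without untreated 2) and C3ar1 (-0.35 to 0.14, without untreated 3), and Cfp in tissue macrophage-like cells alone (0.31, chosen after seeing the data); in monocyte-like cells, Cfp (-1.04 to 0.67, without untreated 5) and with cells typed one by one C5ar1 (0.048) and Cfp (0.21); in dendritic-like cells, Cfp (-0.38 to 0.44, above 0 without gonadotropin 1 at 0.28 and untreated 5). The causes were not tested. Keeping low counts gave 99 called genes against 11 in monocyte-like, 40 against 0 in macrophage-like, 13 against 0 in neutrophil-like, 25 against 0 in dendritic-like, 105 against 27 in B-1-type and 97 against 63 in follicular-type cells. DESeq2 called 57 genes in B-1-type cells, and 15, 2 and 2 in monocyte-like, macrophage-like and neutrophil-like cells. In follicular-type cells, typing cells one by one gave 190 and adding the unnamed Atrnl1 Cpm B cells 119. In monocyte-like cells, a minimum of 5 cells gave 0, typing one by one 3 and the non-classical type alone 3. A minimum of 20 cells, and typing one by one for dendritic-like and B-1-type cells, were not run.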

Other observations

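Barcodes left out of the report as hashtag doublets held more of the complement transcripts given here than the kept cells of their library, except C5ar1 in the untreated library. All 3 C1q chains had a UMI in 140 of 693 doublets of the gonadotropin library (20.2%) and 29 of 655 of the untreated library (4.43%), against 108 of 2423 (4.46%) and 56 of 2495 (2.24%) of the kept cells. These shares were not matched for depth, and a doublet holds more than 1 cell. The median was 15764 UMIs per doublet against 7034 per kept cell in the gonadotropin library, and 13473 against 7664 in the untreated library. In the gonadotropin library C1qb was 848 CPM in doublets and 178 CPM in kept cells, C3 35.2 and 18.7, C4b 24.9 and 4.34, Cfb 14.5 and 1.70, Cfp 257 and 52.6, and C5ar1 56.3 and 23.6. In the untreated library C1qb was 106 and 89.6 CPM, C3 10.97 and 8.59, C4b 18.6 and 7.62, Cfb 3.25 and 0.872, Cfp 67.1 and 39.5, and C5ar1 9.45 and 11.7. Of the barcodes with no hashtag, 11 of 69 and 8 of 20 had all 3 chains. These barcodes cannot be given to a mouse, and no test was made.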
